A study of Mus musculus with 6 samples.

Results

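The Sprouty genes (Spry1, Spry2, Spry3 and Spry4) and the Spred genes (Spred1, Spred2 and Spred3) encode feedback inhibitors of receptor tyrosine kinase signalling. All 7 were found by symbol among the 51912 Ensembl genes of the count table. They were followed in R1 mouse embryonic stem cells, an established line, that had been kept in 2iLIF medium, in which inhibitors of MEK and GSK3 and the cytokine LIF hold the naive state. The cells were then moved to serum-free N2B27 medium with FGF2 at 100 ng/ml, for 24 h in 3 libraries and for 48 h in the other 3. Both groups received FGF2, so the comparison is of 2 times in the same medium, and cells before FGF2 or without it were not analysed here. The labels name no genetic change and no separate cultures, so the p-values measure the spread between these libraries, which may be technical.

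FGF receptors act through the adaptors FRS2 and GRB2 and the exchange factor SOS on RAS, and RAS drives the RAF, MEK and ERK kinases. ERK activity switches on Sprouty and Spred genes, whose proteins then dampen the same pathway. Sprouty proteins act at the level of GRB2, RAS and RAF, and Sprouty2 also binds the ubiquitin ligase CBL. Spred proteins share the cysteine-rich Sprouty domain, carry an EVH1 domain as well, and bring the RAS inhibitor neurofibromin to the membrane. In embryonic stem cells the FGF-ERK pathway promotes exit from the naive state, and the MEK inhibitor of 2iLIF blocks it.

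To show the DNA around 3 members that rose, the 250 bases before the RefSeq start site (GRCm38.p6) are printed 5′ to 3′. Capitals mark a match to an octamer bound by Capicua, the repressor that ERK inactivates (TGAATGAA, TGAATGGA, TCAATGAA or TCAATGGA, on either strand). Spred3 had the largest fold change of the members and holds a match 10 to 3 bases before its start (chr7:29168648-29168897, minus strand); this start lies inside the longer GENCODE span of the gene. Spry2 holds a match on the opposite strand 54 to 47 bases before its start (chr14:105896820-105897069, minus strand). Spred1, with a change of the same order as Spry2, holds none (chr2:117120821-117121070, plus strand). The GENCODE span of Spred1 starts further downstream, at 117121374, so the bases directly before that start were not searched.
Spred3: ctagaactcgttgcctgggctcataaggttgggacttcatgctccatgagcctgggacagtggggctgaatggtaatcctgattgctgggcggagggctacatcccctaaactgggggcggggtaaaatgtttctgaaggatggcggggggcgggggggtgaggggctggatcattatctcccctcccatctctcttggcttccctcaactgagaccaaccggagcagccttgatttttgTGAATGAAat
Spry2: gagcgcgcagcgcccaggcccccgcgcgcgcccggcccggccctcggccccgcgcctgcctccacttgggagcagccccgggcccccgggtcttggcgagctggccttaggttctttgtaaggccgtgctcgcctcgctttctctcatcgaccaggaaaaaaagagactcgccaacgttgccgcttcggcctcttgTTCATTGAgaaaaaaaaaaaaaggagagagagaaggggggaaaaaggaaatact
Spred1: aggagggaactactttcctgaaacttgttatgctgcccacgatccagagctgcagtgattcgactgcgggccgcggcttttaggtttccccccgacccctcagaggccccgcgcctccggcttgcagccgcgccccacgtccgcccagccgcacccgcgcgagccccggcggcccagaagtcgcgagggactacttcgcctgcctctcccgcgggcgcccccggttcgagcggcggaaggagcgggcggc

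The table of promoters held 5 of the members, Spry1, Spry2, Spred1, Spred2 and Spred3. Of the 32817 windows of this length in the table, 3.19% hold one of the Capicua octamers. Among the 5 members only the windows of Spred3 and Spry2 hold one. Those of Spry1, which rose, and Spred2, which did not, hold none, like that of Spred1. The ETS word CCGGAAG (6.9% of windows), the cyclic AMP response word TGACGTCA (1.55%), the AP-1 word TGANTCA (6.75%) and the STAT word TTCNNNGAA (7.01%) were searched on both strands as well. None of these 4 words is in any of the 5 windows. A match describes the letters of the window and is no evidence of binding.

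In GENCODE M21 (GRCm38) all 7 genes are protein-coding. Spry1 (ENSMUSG00000037211) lies on chromosome 3 from 37639947 to 37644598, and Spry2 (ENSMUSG00000022114) on chromosome 14 from 105891947 to 105896819. Spry4 (ENSMUSG00000024427) lies on chromosome 18 from 38586247 to 38601415. Spry3 (ENSMUSG00000061654) is annotated on an unplaced scaffold. Spred1 (ENSMUSG00000027351) spans 117121374 to 117182279 on chromosome 2, Spred2 (ENSMUSG00000045671) 19924375 to 20024026 on chromosome 11, and Spred3 (ENSMUSG00000037239) 29158829 to 29170411 on chromosome 7. Every member had whole-number counts in all libraries. Exons of Spry1 overlap 710 bases of Gm42922 on the opposite strand, and those of Spred3 overlap 202 bases of Ggn. Gm42922 had 0 to 9 counts in a library and Ggn 4 to 19, against at least 140 for Spry1 and 190 for Spred3.

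The libraries held between 19574969 and 23133148 estimated counts. The pluripotency markers Pou5f1 and Sox2 stood at 1111 ± 1.99 and 402.8 ± 7.27 CPM at 24 h (SD, n = 3). At 48 h 6 of the 7 pluripotency genes were lower, from -0.07 on the log2 scale for Pou5f1 to -1.99 for Nanog. Nanog went from 694.7 ± 24.6 to 174.4 ± 6.47 CPM, and Esrrb changed by -1.47. Utf1 went the other way and rose by 0.60. CPM is a gene's counts scaled to a library total of 1000000 after TMM scaling, a correction for differences in composition between libraries. Markers of other cells moved too. The summed level of the 3 neural markers Sox1, Pax6 and Nes went from between 52.04 and 54.2 CPM to between 91.1 and 98.7 CPM, with Sox1 and Pax6 higher and Nes lower. The 6 primitive endoderm markers summed to between 9.06 and 10.6 CPM at 24 h and between 5.62 and 6.27 CPM at 48 h; only Gata4 was called in this list, at 5.84 ± 0.86 and then 2.25 ± 0.22 CPM, and the defining gene Gata6 had 0 to 5 counts in a library at 24 h and 3 to 9 at 48 h. The 6 trophoblast markers summed to between 7.28 and 7.84 CPM at 24 h and between 2.17 and 2.39 CPM at 48 h. Most of that sum was Tfap2c, the only gene called in this list (6.60 ± 0.10, then 1.55 ± 0.24 CPM), and the defining gene Cdx2 had 0 or 1 count in each library. The 4 mesoderm markers summed to less than 1 CPM in every library, and the 6 fibroblast markers to between 2.44 and 3.79 CPM. Among the fibroblast markers Postn and Lum were at 0 in all libraries. Dcn was at 0 at 24 h and had 23 to 32 counts at 48 h, while Col1a1 fell from 1.03 ± 0.24 to 0.304 ± 0.114 CPM (SD, n = 3; edgeR adjusted p = 0.000654). Thy1 was not called (-0.38 on the log2 scale) and Col1a2 had too few counts to test. The part of the shift in cell markers in the values below was not tested. In a bulk sample, fewer cells of a type and less RNA per cell cannot be told apart.

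Of the 7 members 5 rose from 24 h to 48 h and 1 was slightly lower, whereas Spry3 had too few counts to test. Spred3 rose most, by 2.32-fold, Spry4, Spred1 and Spry2 each rose between 1.5-fold and 1.58-fold, and Spry1 rose by 1.22-fold. Spred2, the member with the most counts at 24 h, stood at 0.951 of its 24 h level. A gene is called changed when edgeR's quasi-likelihood test, fitted on all 14889 genes with enough counts, gave a Benjamini-Hochberg adjusted p under 0.05. By that rule 62.8% of all tested genes changed, 30.9% upward and 31.9% downward, so a call by itself is common in this comparison. The CPM values of both times did not overlap for 5 of the 6 tested members, against 66.9% of all tested genes. Over all tested genes the log2 fold change had a median of -0.0063. Together the 7 genes held 300.3 ± 3.83 CPM at 24 h and 398.3 ± 4.89 CPM at 48 h (SD, n = 3).

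**Figure D1:**
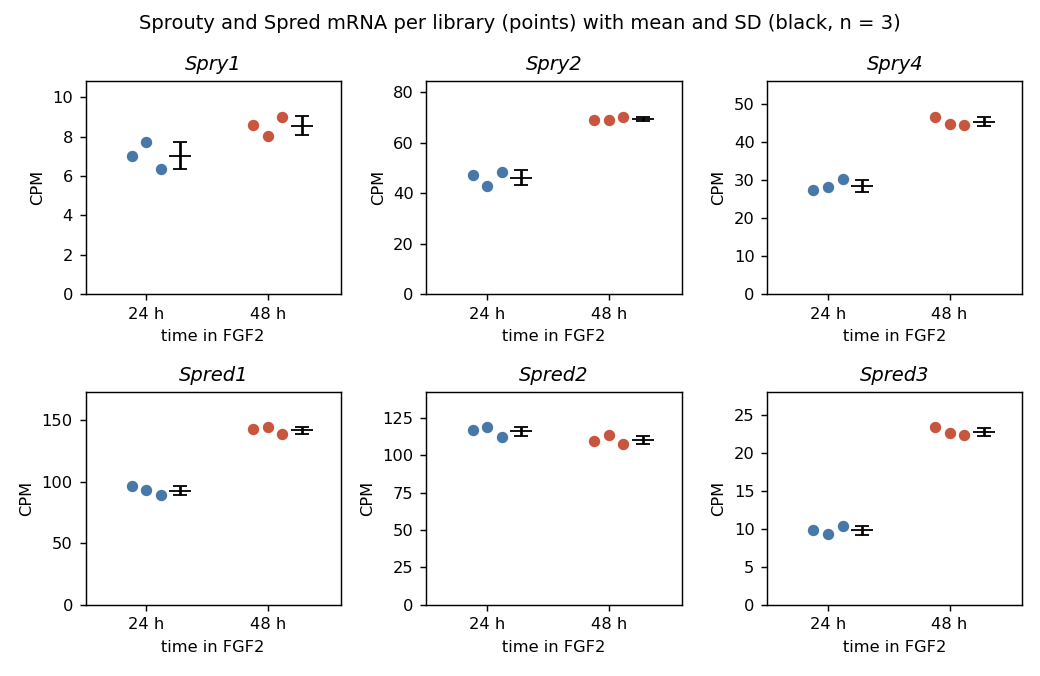
CPM (vertical axis, from 0) of the 6 tested Sprouty and Spred genes in each library at 24 h (blue) and 48 h (red); the black bar is the mean with SD of 3 libraries. Only for Spred2 do the points of both times share a range, while Spred3 goes from about 10 CPM to between 22.4 and 23.4 CPM.

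Spry2 encodes the Sprouty protein best known for binding CBL and GRB2. At 24 h it stood at 47.3, 42.8 and 48.6 CPM in replicates 1, 2 and 3, and at 48 h at 69.2, 69.2 and 70.5 CPM. All 48 h libraries were above all 24 h libraries, and replicate 2 was the low one at 24 h. The log2 fold change was 0.59 ± 0.04 (standard error; 95% interval 0.50 to 0.68, adjusted p = 3.70e-09). Among all tested genes 9.93% had a larger log2 fold change.

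Spry4 is widely used as a reporter of FGF-ERK activity in mouse embryonic stem cells. Its values were 27.2, 28 and 30.2 CPM at 24 h and 46.6, 44.6 and 44.4 CPM at 48 h. The groups stood well apart, and replicate 3 was the highest at 24 h and the lowest at 48 h. The log2 fold change was 0.66 ± 0.05 (standard error; 95% interval 0.56 to 0.76, adjusted p = 2.44e-09).

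Spry1, known as an antagonist of RET and FGF signalling in the developing kidney, was the least abundant Sprouty gene that could be tested. It stood at 7.01, 7.71 and 6.36 CPM at 24 h and at 8.61, 8.04 and 9.02 CPM at 48 h. The groups did not overlap, but 24 h replicate 2 came close to 48 h replicate 2. The log2 fold change was 0.29 ± 0.10 (standard error; 95% interval 0.08 to 0.50, adjusted p = 0.0191). This call did not hold in 4 of the 15 other fits. It was lost without 24 h replicate 3 (0.21, adjusted p = 0.10), without 48 h replicate 3 (0.25, adjusted p = 0.0700), with scaling by library size alone (0.23, adjusted p = 0.0565) and with DESeq2 (0.29, adjusted p = 0.0774). The adjusted p ranged from 0.0114 to 0.10 over these fits.

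Spry3, the remaining Sprouty paralogue, had 0 counts in 4 libraries, 1 in 24 h replicate 2 and 4 in 48 h replicate 3. A count of 0 allows up to 3 counts, which is between 0.127 and 0.150 CPM in these libraries, for counting error only. Spry3 was therefore at or near that limit at both times and no fold change is given.

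Spred1 is the family member mutated in Legius syndrome, in which its link to neurofibromin is lost. It was at 96.4, 93.1 and 88.8 CPM at 24 h and at 142.6, 144.2 and 138.6 CPM at 48 h. The lowest library was replicate 3 at both times, and the groups were far apart. The log2 fold change was 0.61 ± 0.03 (standard error; 95% interval 0.55 to 0.68, adjusted p = 3.87e-11).

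Spred2 shares the EVH1, KIT-binding and Sprouty domains of Spred1. It was at 116.8, 118.8 and 112.5 CPM at 24 h and at 109.5, 113.4 and 107.8 CPM at 48 h. The groups overlapped, since 48 h replicate 2 was above 24 h replicate 3. The log2 fold change was -0.07 ± 0.03 (standard error; 95% interval -0.14 to -0.01, adjusted p = 0.0449), a call close to the threshold. It held in 7 of the 14 other fits, where the adjusted p ranged from 0.00114 to 0.170 and the fold change from -0.13 to -0.06. Of all tested genes 84.1% had a larger change in size.

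Spred3 is thought to lack a working KIT-binding domain. It went from 9.81, 9.28 and 10.4 CPM at 24 h to 23.4, 22.7 and 22.4 CPM at 48 h. Every 48 h library was far above every 24 h library, with little scatter in either group. The log2 fold change was 1.21 ± 0.07 (standard error; 95% interval 1.06 to 1.36, adjusted p = 2.27e-10), and 3.33% of all tested genes had a larger one. With the counts of Ggn added, in case reads of the opposite strand were mixed, it was 1.21 again. Ggn had at most 19 counts in a library, so this sum could hardly move the value and does not decide whether strands were mixed.

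**Figure D2:**
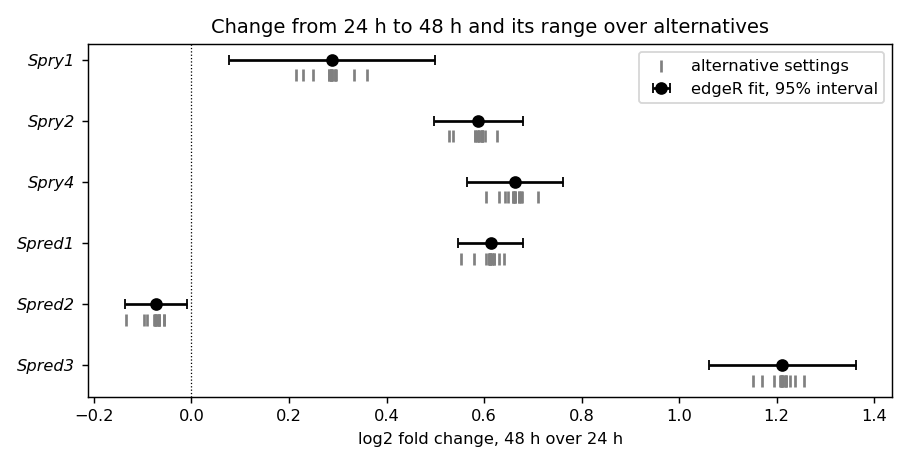
Log2 fold change from 24 h to 48 h (horizontal axis) of each tested member, with the 95% interval of the edgeR fit (black) and the values of the other fits (grey ticks). Spry2, Spry4 and Spred1 lie close together between 0.59 and 0.66, Spred3 lies at 1.21, and Spred2 lies next to 0.

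Levels of different genes were compared per length, as CPM divided by the length in kb of the longest coding transcript. At 24 h Spred2 came first at 26.1 ± 0.72 CPM per kb (SD, n = 3), followed by Spry2 at 22.1 ± 1.46 and Spred1 at 15.4 ± 0.63. Spry4 stood at 5.99 ± 0.33 CPM per kb, and Spry1 (2.53 ± 0.24) and Spred3 (2.43 ± 0.14) did not differ beyond their spread. At 48 h the order had changed. Spry2 was first at 33.3 ± 0.36 CPM per kb, ahead of Spred2 at 24.8 ± 0.65 and Spred1 at 23.6 ± 0.48. The lowest Spred2 library, at 24.2 CPM per kb, was only just above the highest Spred1 library, at 24 CPM per kb. Spry4 (9.50 ± 0.25) came next, and Spred3 (5.63 ± 0.13) had moved above Spry1 (3.09 ± 0.18). With the length of all annotated exons in place of the longest transcript, Spred3 was below Spry1 at 24 h (1.58 against 2.42 CPM per kb) and above it at 48 h (3.67 against 2.94).

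**Figure D3:**
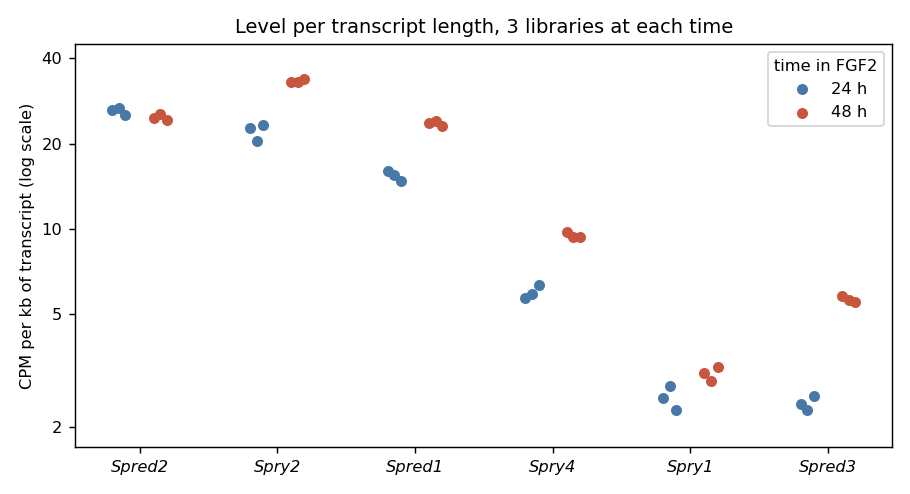
CPM per kb of transcript (vertical axis, log scale) of the 6 tested members, ordered by their 24 h mean, in 3 libraries at 24 h (blue) and 3 at 48 h (red). Spry2 passes Spred2 between the times. Spred3 and Spry1 share a range at 24 h, and Spred3 is above Spry1 at 48 h.

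The make-up of each family was then followed as the share of each paralogue in the family's summed counts, which does not depend on how libraries are scaled. Within the Spred family the balance of counts moved from Spred2 to its paralogues. Spred1 and Spred3 rose, whereas the level of Spred2 itself hardly changed (116.0 ± 3.22 and then 110.2 ± 2.89 CPM; SD, n = 3). Spred2 held 52.4%, 53.7% and 53.1% of the Spred counts at 24 h and 39.7%, 40.5% and 40.1% at 48 h. Spred1 went from 42.4% ± 0.69 to 51.6% ± 0.16 (SD, n = 3), so the leading paralogue by counts changed from Spred2 to Spred1. Spred3 went from 4.51% ± 0.38 to 8.31% ± 0.20. The groups did not overlap for any of these 3 shares, which are parts of the same sum and so not separate results. The two-sided exact permutation test gave p = 0.1 for each (adjusted p = 0.117 over the 7 shares tested), the smallest value that 3 against 3 libraries allow, so no share could pass 0.05. Per transcript length Spred2 remained the first of the 3, with 59.4% ± 0.64 at 24 h and 45.9% ± 0.40 at 48 h, against 35.1% ± 0.64 and 43.7% ± 0.15 for Spred1.

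Within the Sprouty family the make-up moved little. Spry2 held 56.5% ± 1.83 of the Sprouty counts at 24 h and 56.4% ± 0.67 at 48 h (SD, n = 3; exact permutation p = 0.8, adjusted p = 0.8), and the groups overlapped. Its difference of -0.12 points turned to 0.41 points per transcript length. Spry4 went from 34.8% ± 1.26 to 36.6% ± 0.84, and Spry1 from 8.63% ± 1.18 to 6.93% ± 0.33. The libraries of both times did not overlap for Spry4 and Spry1 (exact permutation p = 0.1 for each, adjusted p = 0.117), though per transcript length the Spry4 shares did (exact permutation p = 0.2, adjusted p = 0.233). The 24 h libraries were the more scattered, with Spry1 shares of 8.6%, 9.83% and 7.46%. Without 24 h replicate 2 the Spry1 difference of -1.70 points became -1.10, and without 24 h replicate 1 the Spry4 difference of 1.79 points became 1.07. Of all counts of the 7 genes the Sprouty genes held 27.2% ± 1.31 at 24 h and 31% ± 0.65 at 48 h, again without overlap (exact permutation p = 0.1, adjusted p = 0.117). The summed Sprouty level rose 1.51-fold, from 81.7 ± 3.34 to 123.4 ± 1.39 CPM. The summed Spred level went from 218.6 ± 6.05 to 274.9 ± 5.82 CPM, 1.26-fold.

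**Figure D4:**
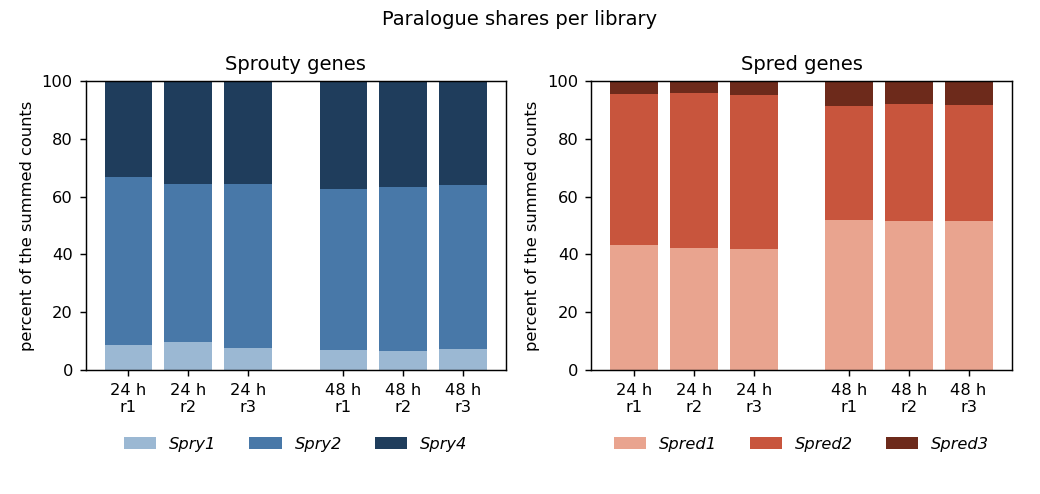
Share of each paralogue in the summed counts of its family (vertical axis, percent) in each library, for the Sprouty genes (left) and the Spred genes (right); Spry3 is too rare to be seen. The Sprouty bars keep nearly the same divisions, whereas the share of Spred2 goes from about 53% to about 40% of the Spred counts in all 3 libraries.

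Whether paralogues changed by different amounts was tested on the log2 ratio of their counts in each library, over 5 ratios. The ratio of Spred2 to Spred1 was 0.28, 0.35 and 0.34 at 24 h and -0.38, -0.35 and -0.36 at 48 h. It fell by 0.69 on the log2 scale, far beyond the SDs of 0.04 and 0.02, and was above 0 in every 24 h library and below 0 in every 48 h library. The change of sign holds for counts only, since per transcript length Spred2 stayed above Spred1 in every 48 h library. The ratio of Spry4 to Spry2 was -0.70 ± 0.09 at 24 h and -0.62 ± 0.05 at 48 h (SD, n = 3), a difference of 0.08 with overlapping groups (exact permutation p = 0.4, adjusted p = 0.4). Spry1 moved less than its paralogues. Its ratio to Spry2 fell by 0.31 and its ratio to Spry4 fell by 0.38, in both cases without overlap. Without 24 h replicate 2, the 24 h library with the most Spry1, the ratio to Spry2 fell by 0.18. The ratio of summed Sprouty to summed Spred counts was higher by 0.26 at 48 h. The 4 ratios whose groups did not overlap each had an exact permutation p = 0.1 (adjusted p = 0.125), the smallest that this design can give.

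The steadiness of each member over replicates was described by its coefficient of variation (CV), the SD of CPM as a percent of the mean. At 24 h the CVs were 9.66% for Spry1, 6.61% for Spry2, 5.53% for Spry4, 4.08% for Spred1, 2.77% for Spred2 and 5.84% for Spred3. At 48 h they were 5.73%, 1.07%, 2.67%, 2.04%, 2.62% and 2.36% in the same order, smaller for each of the 6. How many of all tested genes also had a smaller CV at 48 h was not counted. Counting alone would give 3.18% for Spry2 at 24 h and 2.56% at 48 h, and 2.25% and 1.79% for Spred1. It would give 8.18% and 7.30% for Spry1, 4.05% and 3.18% for Spry4, and 6.89% and 4.47% for Spred3. For Spred2, whose level did not rise, it would give 2.01% and 2.03%. Of the 4215 genes with a mean count within 2-fold of that of Spry2 at 24 h, 91.8% had a smaller CV, and at 48 h 10.4% of 3708 such genes did. For Spred1 these shares were 83.7% and 49.3%, for Spry4 72.5% and 39.6%, and for Spry1 64.9% and 38.9%. Spred2 lay somewhat above the median CV of genes of like abundance at both times (2.77% against 2.22%, then 2.62% against 2.22%), and Spred3 below it (5.84% against 6.38%, then 2.36% against 4.20%). The 48 h CVs of Spry1, Spry2, Spry4 and Spred3, and the 24 h CV of Spred3, were below the value from counting alone. With 3 libraries a CV is itself imprecise, so such low values were not taken as a sign of steadiness. No test was made of the difference in CV between the times.

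The rest of the pathway was described by 5 lists of genes, as counts of calls beside the 62.8% of all genes that changed. Of the 13 receptor and adaptor genes 8 were higher, 3 lower and 2 not called, with a median log2 fold change of 0.095; with scaling by library size alone 6 were higher and 3 lower, the median was 0.035, and Frs2 and Shc1 lost their calls. The largest change in the list was that of the receptor gene Fgfr2, with 4.08 ± 0.07 CPM at 24 h and 33.3 ± 1.22 CPM at 48 h (SD, n = 3), a rise of 3.03 on the log2 scale (edgeR adjusted p = 3.68e-15). Its counts were fractional, as happens where reads match more than 1 gene or sequence. Fgfr1, another receptor gene, rose by 0.20 and the docking protein gene Gab1 by 0.32. Grb2, whose product Sprouty2 binds, fell by 0.25, also from fractional counts.

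Of the 12 genes from RAS to ERK 8 were higher, 2 lower and 2 not called (median 0.15); with scaling by library size alone 8 were higher and 4 lower, with a median of 0.094. Braf rose by 0.62 (adjusted p = 7.27e-12), and Mapk3, which encodes ERK1, rose by 0.33. Map2k1, which encodes MEK1, fell by 0.39, and the scaffold gene Ksr1 fell by 0.94 (adjusted p = 1.95e-07).

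Binding partners and regulators of the Sprouty and Spred proteins moved in both directions. Of 15 genes 14 were tested, 6 were higher, 5 lower and 3 not called, with a median of 0.059; with scaling by library size alone 4 were higher and 5 lower, and the median was -0.0017. Cbl stood at 134.2 ± 3.07 CPM at 24 h and at 190 ± 2.61 CPM at 48 h (SD, n = 3), a rise of 0.50 on the log2 scale (edgeR adjusted p = 2.59e-11). Nf1, which encodes neurofibromin, changed by 0.11 (adjusted p = 0.0218), a call lost when scaling was by library size alone. Nedd4, a ubiquitin ligase for Sprouty2, rose by 0.15. Mknk1, a kinase that phosphorylates Sprouty2, fell by 0.77 (adjusted p = 2.27e-07), and Dyrk1a, another such kinase, fell by 0.20. Lztr1, an adaptor for RAS degradation, fell by 0.23. Cav1, whose product binds Sprouty proteins, had 0 counts in every library.

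Other feedback inhibitors of the pathway included 12 tested genes of 13, of which 7 were higher, 2 lower and 3 not called (median 0.28); with scaling by library size alone 6 were higher and 2 lower, with a median of 0.22. The ERK phosphatase genes Dusp4 and Dusp6 rose by 2.03 and 0.39 on the log2 scale. Other phosphatase genes of the list varied: Dusp10 rose by 0.81, Dusp1 by 0.63 and Dusp5 by 0.59. Dusp8 rose by 1.40, but from very few counts (0.22 ± 0.18, then 0.62 ± 0.10 CPM, SD, n = 3). Its 95% interval was wide, from 0.39 to 2.41 (edgeR adjusted p = 0.0177). Dusp9 rose by 0.17, a call lost with scaling by library size alone, and Dusp7 was not called (0.09). Dusp14 fell by 1.8 (adjusted p = 9.40e-11). Il17rd, which encodes the FGF antagonist Sef, changed by 0.01 (95% interval -0.07 to 0.08, adjusted p = 0.903). Of the 10 ERK-responsive transcription regulators 9 were tested, 2 were higher, 2 lower and 5 not called (median -0.058). Myc rose by 0.62 (adjusted p = 2.48e-08) and Etv4 fell by 0.34 (adjusted p = 1.10e-05). Etv5 rose by only 0.075, a call lost with scaling by library size alone. The 5 not called were Etv1, Ier2, Ier3, Fos and Egr1, of which Fos (0.62 CPM at 24 h) and Egr1 (1.12 CPM) were low. Cic, which encodes Capicua, stood at 137.6 ± 2.40 CPM at 24 h and at 122.1 ± 2.26 CPM at 48 h (SD, n = 3) and so fell by 0.17 on the log2 scale (edgeR adjusted p = 2.94e-05). With scaling by library size alone this list had 1 gene higher and 5 lower, with a median of -0.12.

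**Figure D5:**
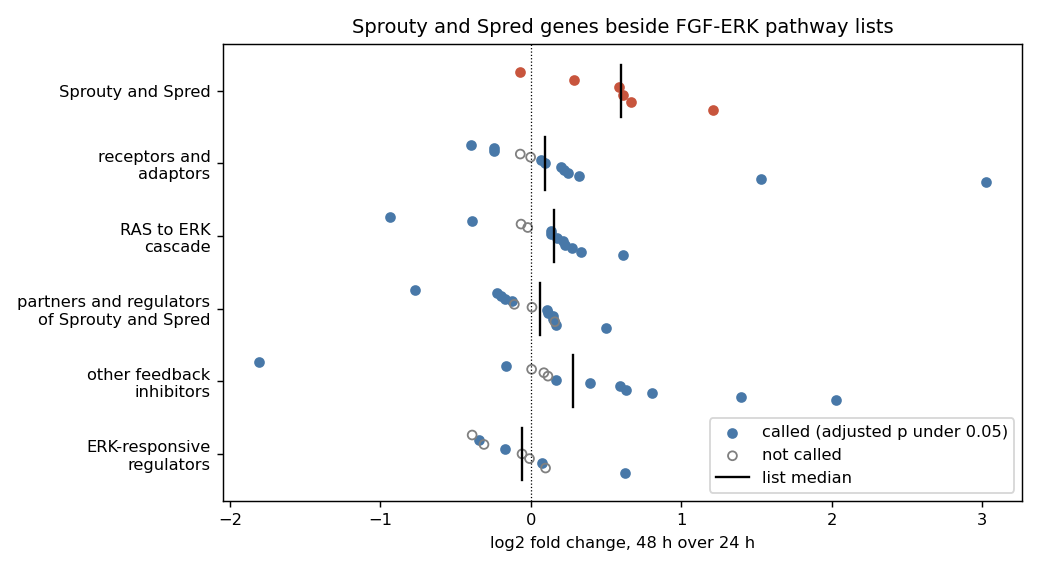
Log2 fold change from 24 h to 48 h (horizontal axis) of each tested gene of the Sprouty and Spred families (red) and of 5 FGF-ERK lists (blue), with filled points for called genes, open points for others and a black line at each median. The medians of the 5 pathway lists lie between -0.058 and 0.28.

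Genes with the most similar course were found by the Euclidean distance between profiles of log2 CPM over the 6 libraries, each centred on its mean, for the 3 members with the highest CPM. Near to Spred1 was Lss, an enzyme of sterol synthesis, at a distance of 0.041. Nearest to Spred2 were Mtmr4 (0.033) and Ints7 (0.034). Nearest to Spry2 were Ccdc86 (0.072) and Zbed3 (0.079). With 6 libraries in 2 groups such nearness follows mainly from a like fold change, as for Lss (0.59) beside 0.61 for Spred1.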

How the data were processed

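Per the submitters' processing notes, cutadapt 1.9.1, STAR 2.5.2, RSEM 1.3.0 and the build GRCm38 were used, with no role or order given. Annotation version, strandedness of counting and read filters are not given in the sources used here. The authors deposited estimated counts per gene, not scaled for depth or length. Counts were rounded, genes were kept by filterByExpr (minimum count 10) and the 48 h libraries were compared with the 24 h ones by edgeR 4.0.16 (quasi-likelihood test, TMM, group as the only term, R 4.3.3). The fit was tested on simulated counts. A first criterion for the share of changed genes recovered, over all tested genes, was missed at the smaller of the fold changes. Only after this miss was the criterion limited to genes with high counts. It was met there, which says nothing of genes with fewer counts. How the fit behaves where as many as 62.8% of genes change was not tested. The standard error is the size of the log2 fold change divided by the square root of F. Shares and ratios (pseudocount 0.5) were tested by exact permutation over libraries. Symbols and lengths came from GENCODE M21 and promoters from RefSeq. Members were given by symbol. Named genes were the members, the 5 pathway lists, the cell type markers and the 2 nearest genes of each of the 3 most abundant members. Some of these genes are not reported here. Members, lists and motifs were chosen with earlier results of these data known. Alternatives used RLE scaling, library size only, other filters, DESeq2 1.42.0, limma voom (limma 3.58.1), a replicate block, thinning to the lowest total and leaving out each library; exon union lengths and sums with opposite-strand genes were added after seeing the data. No coordinates were converted.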

Additional observations from a re-analysis of the deposited data

How the results depend on the processing

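The rises of Spry2, Spry4, Spred1 and Spred3 kept their direction and call in all 14 other fits of each (15 for Spred3). The Spry1 call was lost with library size only (0.23) and with DESeq2 (0.29), and leaving out each library gave values from 0.21 to 0.36. The Spred2 call was lost with RLE scaling (-0.066), DESeq2 (-0.066) and thinning to the lowest total (-0.073), and leaving out each library gave values from -0.098 to -0.056, with the call lost without 24 h replicate 1 or 2 and without 48 h replicate 1 or 3. The number of members called lower was therefore 0 with a threshold of 0.01, RLE scaling, DESeq2 and thinning, and from 0 to 1 when each library was left out. The difference in the Spry2 share of Sprouty counts turned to 0.41 points per transcript length and to 0.36 points per exon union length, and lay between -1.14 and 0.63 points when each library was left out. The Spred3 share difference was 4.90 points per transcript length, and the Sprouty share of all counts differed by 5.54 points per exon union length. The Spry2 share difference also turned positive without single libraries (0.63 without 24 h replicate 1, 0.15 without 24 h replicate 3 and 0.27 without 48 h replicate 1). For each of these shifts the cause was not tested. With the replicate block, 9235 genes changed in all, and Spry1 stood at 0.29 (adjusted p = 0.0308) and Spred2 at -0.07 (adjusted p = 0.0307), with no member's call changed. Deviations of same-numbered libraries correlated at -0.046, -0.043 and -0.0085 across genes, and 0 of 6 libraries correlated best with their own number, so replicate numbers were not taken as pairs. Depth limits Spry3, with at most 4 counts in a library.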

Other observations

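The promoter windows of the members differed in base composition. In the 250 bases before the start, Spred1 had 31 CpG pairs and a GC content of 70.8%, Spry1 and Spry2 each had 23 pairs and 62.4%, Spred2 had 12 pairs and 56%, and Spred3 had 6 pairs and 55.6%. The median over 32817 windows was 6 pairs and 52.4%. Spred3 thus had the fewest CpG pairs of the 5 members in the table, as many as the median window. The RefSeq start behind its window lies inside the longer GENCODE span of the gene. Spred2, which did not rise, had the next fewest. This is a description of 5 windows with no test.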
